A study of Mus musculus with 12 samples.

Results

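Fragments of the mitochondrial histidine tRNA with anticodon GTG (mt-His-GTG, listed as chrM.tRNA11-HisGTG) were followed across 12 tRNA-derived small RNA sequencing (tsRNA-seq) libraries of mouse liver. The members were all distinct read sequences listed under the mature form of this tRNA and under no other tRNA, 5641 of the 87699 distinct sequences in the table, with 41800 of 1705883 tRNA reads. A further 11 sequences (43 reads) were also listed under nuclear tRNA-Tyr-GTA-6-1 and were left out. The tRNA was selected from all tRNAs because its reads differed between the genotypes, so its level in the knockout against wild type is described here without a test.

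The livers came from male B6D2F1/Crl mice, 8 to 12 weeks old by their age label (the description of the treatment has a slightly higher lower limit), that either lacked NSun2 through a CRISPR/Cas9 deletion in exon 2 (NS-KO) or were wild type (WT). CCl4, a solvent that hepatocytes turn into a toxic radical, was diluted to 40% with corn oil and injected into the peritoneum, 2 mL for each kg of body weight. Each genotype was sampled without injury (day 0, D0), 3 days after a single injection (D3) and on day 27 of repeated injections (D27), with 2 independent biological replicates per group. RNA was deacylated, phosphorylated and treated to remove methyl groups from adenosine (m1A) and cytidine (m3C) before reads of 14 to 40 nt were kept, so no longer fragment was measured. The libraries held 46937 to 275568 tRNA reads, and the table holds tRNA reads alone, so that neither the NSun2 transcript nor liver markers could be checked in it. In whole liver, fewer cells that carry a fragment and less of it per cell cannot be told apart.

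Mitochondrial tRNAs are transcribed as parts of long polycistronic RNAs, cut out at both ends, given a CCA tail and then folded into short, weakly held cloverleaves that serve the mitochondrial ribosome. mt-His-GTG is the adaptor that reads histidine codons there. NSUN2 places 5-methylcytosine on many cytosolic tRNAs and on some mitochondrial ones, and cytosolic tRNAs that lack this mark are cut more readily by the ribonuclease angiogenin, usually in the anticodon loop. Pieces cut in the anticodon loop are called tiRNAs, and shorter ones tRFs.

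The whole tRNA is shown first, because every fragment is placed on it by counting from its base 1, and the 6 sequences after it are those on which the results turn. Capitals mark the anticodon, of which a read that starts at base 32 holds only the end. Each fragment is named by its first and last base.
mt-His-GTG with CCA: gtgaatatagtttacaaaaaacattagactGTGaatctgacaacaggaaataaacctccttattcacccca
32-71: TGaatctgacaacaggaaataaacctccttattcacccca
32-70 C70A: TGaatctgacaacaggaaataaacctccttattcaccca
18-49: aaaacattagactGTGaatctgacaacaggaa
18-51: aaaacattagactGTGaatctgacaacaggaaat
20-49: aacattagactGTGaatctgacaacaggaa
17-38: aaaaacattagactGTGaatct

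The table prints the tRNA at chrM:11544-11612 without naming a genome build, and its sequence has 68 bases plus CCA, 71 in all. In RefSeq (GRCm38.p6) the gene TrnH spans bases 11546 to 11612 of the mitochondrial chromosome, 1 base shorter than the 68 of the table, after the protein-coding ND4 and directly before TrnS2 (mt-Ser-GCT) and TrnL2 (mt-Leu-TAG). The interval in the table, if its start is counted from 0, begins 1 base before that gene. Every position given here counts from base 1 of the table's own sequence. By the fold drawn in the table, the acceptor stem pairs bases 1 to 7 with 61 to 67, the D arm runs over bases 10 to 22, the anticodon stem pairs 24 to 28 with 36 to 40 around the anticodon at 31 to 33, and the T loop covers 49 to 56. The 5641 sequences were a broad set. A single read supported 3585 of them, 28 were seen in all 12 libraries, and the 10 with the most reads together held 11.6% of reads. Most carried the authors' type Other (5508 sequences, 93.3% of reads), which takes in whatever does not have the ends of a named class, and 100 were tiRNA-3, which run from the anticodon loop to the 3′ end (6.39%). These shares are of reads pooled over libraries, most of which came from NS-KO D3. In single libraries the tiRNA-3 share was 33.3% and 31.8% in NS-KO D0 and 1.57% and 0.954% in NS-KO D3, and 40.3% and 44.3% in WT D0. The authors allowed 1 mismatch, and 26903 of the 41800 reads had none.

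mt-His-GTG was among the most sequenced mitochondrial tRNAs in every liver and stood apart in NS-KO livers at D3. Scaled to the same total of tRNA reads (CPM), the NS-KO libraries held 9531 and 9459 without injury, 60087 and 149907 on day 3 and 18117 and 21073 on day 27. The WT libraries held 3432 and 4985 CPM without injury, 9287 and 5549 on day 3 and 8691 and 4772 on day 27. Both NS-KO D3 libraries lay above the other 10, although they differed from each other by more than any other pair. Counting error was small against that gap, since the share of tRNA reads had a 95% Wilson interval of 5.91% to 6.11% in NS-KO D3 replicate 1 and of 14.8% to 15.2% in replicate 2. These intervals cover counting error within a library only, and not the spread between mice. As the reads carry no molecular identifiers, PCR copies count as separate reads, so the intervals may be too narrow.

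How far the genotypes differed depended on the day and on the scale. By mean CPM, NS-KO was 2.26-fold WT at D0, 14.2-fold at D3 and 2.91-fold at D27. The share of all tRNA reads that came from mitochondrial tRNAs was itself 34.8% to 57.4% in NS-KO and 8.74% to 22.6% in WT. After TMM scaling, which sets libraries level on the bulk of tRNAs, the D0, D3 and D27 ratios were 0.834, 12.4 and 1.09, so the D0 difference turned round and the D27 one nearly closed. Among mitochondrial tRNA reads alone, mt-His-GTG made up 2.18% and 2.22% in NS-KO D0 against 3.18% and 3.56% in WT D0, and 16.5% and 26.1% in NS-KO D3 against 4.11% and 4.51% in WT D3. At D27 it made up 5.11% and 6.06% in NS-KO and 5.21% and 5.46% in WT, and the ranges overlapped. On each of these scales the NS-KO D3 libraries were above those of WT D3. Of the 21 mature mitochondrial tRNAs in the table, mt-His-GTG held rank 2 by reads in NS-KO D3 replicate 1 and rank 1 in replicate 2, rank 3 in both NS-KO D0 libraries and rank 2 in the other 8.

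**Figure D1:**
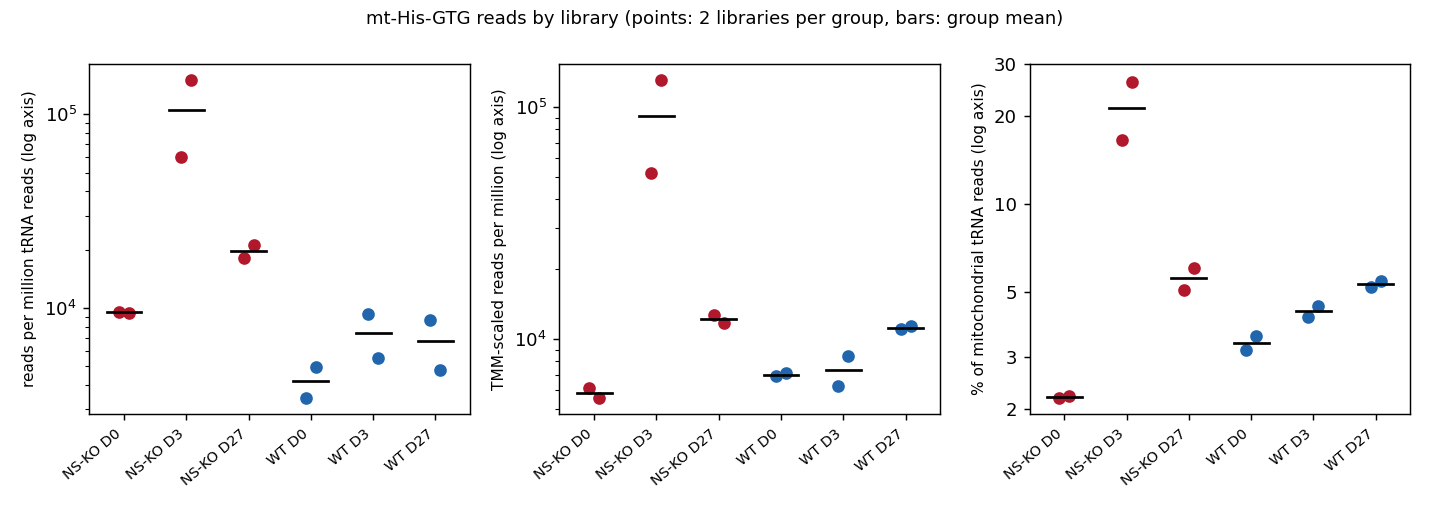
mt-His-GTG reads in each library, as CPM, as TMM-scaled CPM and as percent of mitochondrial tRNA reads, all on log axes. Points are the 2 libraries of a group and bars their mean; the NS-KO D3 libraries, at 60087 and 149907 CPM, lie above all others on each scale.

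The response to CCl4 was then tested within each genotype, in limma fits over 124 sums of reads, each sum being 1 tRNA isodecoder (tRNAs of 1 anticodon) in mature or precursor form. The fits are not independent of the choice of this tRNA, since the NS-KO D3 libraries also carry the genotype difference. In NS-KO livers mt-His-GTG was higher at D3 than at D0, with a log2 difference of 3.81 and a standard error of 0.36 (adjusted p = 1.53e-05). With limma, 38.7% of all sums were called in that comparison, 33 higher and 15 lower. Shares of sums called count both directions, here and below. By D27 it had fallen again, with a log2 difference of D27 to D3 of -2.76 (standard error 0.36, adjusted p = 0.000172, 40.3% of sums called). With scaling on mitochondrial tRNA reads alone these 2 differences were 2.35 and -1.09, and both passed in limma. D27 against D0 in NS-KO gave a log2 difference of 1.06 (standard error 0.36) that missed the threshold in limma (adjusted p = 0.167, 2.42% of sums called). It passed without NS-KO D3 replicate 1 (1.04, limma adjusted p = 0.0161), without replicate 2 (1.04, limma adjusted p = 0.0165), and where scaling used mitochondrial tRNA reads alone (1.25, limma adjusted p = 0.000159).

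In WT livers no comparison passed. The limma estimates were 0.05 at D3 against D0 (adjusted p = 0.986), 0.67 at D27 against D0 (adjusted p = 0.463) and 0.62 at D27 against D3 (adjusted p = 0.41), each with a standard error of 0.36 on the log2 scale. No sum at all was called in WT, 0% in each of the 3 comparisons, while 18, 19 and 17 of the 124 had an unadjusted limma p under 0.05, and voom weights also called 0. The difference between the genotypes in the D3 change had a log2 value of 3.76 with a standard error of 0.51 (limma, 25.8% of sums called). It is built from the genotype levels on which the tRNA was chosen and is given as a description. It was smaller, at 2.53, without TMM factors and at 2.17 with scaling on mitochondrial tRNA reads alone. For the D27 change it was 0.39 (standard error 0.51, adjusted p = 0.826, 0% of sums called, 13 at an unadjusted p under 0.05 and 0 with voom weights).

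Read by where they start, the fragments fell into 2 populations that behaved differently. These classes were drawn along the fold of the tRNA after the values had been seen, and are given without a test. One population started at base 32, inside the anticodon, with 5128 reads against 140 at base 31 and 207 at base 33. Of these, 84.6% ended within the last 4 bases of the tRNA. The full 32-71 fragment has 40 nt, the longest read kept, so a 3′ tiRNA cut any earlier could not appear whole in the table. The other population was a ladder that started in the D arm (27288 reads) or between the D arm and the anticodon (8404 reads), in the pooled reads most often at bases 18, 17, 19 and 20, with a median length of 32 nt for starts in the D arm and 28 nt for the later ones. Only 5.06% of the D-arm reads were at the length limit. The pooled order is that of NS-KO D3, since base 16 took 8.44% and 8.11% of reads in NS-KO D0 and 8.97% and 7.45% in WT D0, above base 18 with 4.00% and 3.60% in NS-KO D0 and 2.19% and 1.49% in WT D0. No read of 40 nt or less that starts before base 32 can reach the last base, so the absence of the CCA tail from the ladder is set by the reads kept.

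The ladder, and not the reads that start at base 32, made up the excess in NS-KO livers at D3. Reads starting in the D arm were at 2838 and 2450 CPM in NS-KO D0, 43058 and 109491 in NS-KO D3, and 10900 and 12501 in NS-KO D27. The WT D0 libraries held 770 and 848 CPM of them, those of WT D3 2687 and 2079, and those of WT D27 4425 and 2210. NS-KO D3 was therefore 28.8-fold NS-KO D0 by mean CPM and 40.5-fold after TMM scaling, and within WT the D3 mean was 2.95-fold and 1.80-fold that of D0 on these 2 scales. At D27 the D-arm starts were above D0 in both genotypes, 4.43-fold in NS-KO and 4.10-fold in WT by CPM, and 4.46-fold and 3.93-fold after TMM scaling. Reads starting at base 32 were at 2673 and 5176 CPM in NS-KO D3 against 5140 and 5305 in NS-KO D0, a ratio of 0.751 that became 1.06 after TMM scaling.

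**Figure D2:**
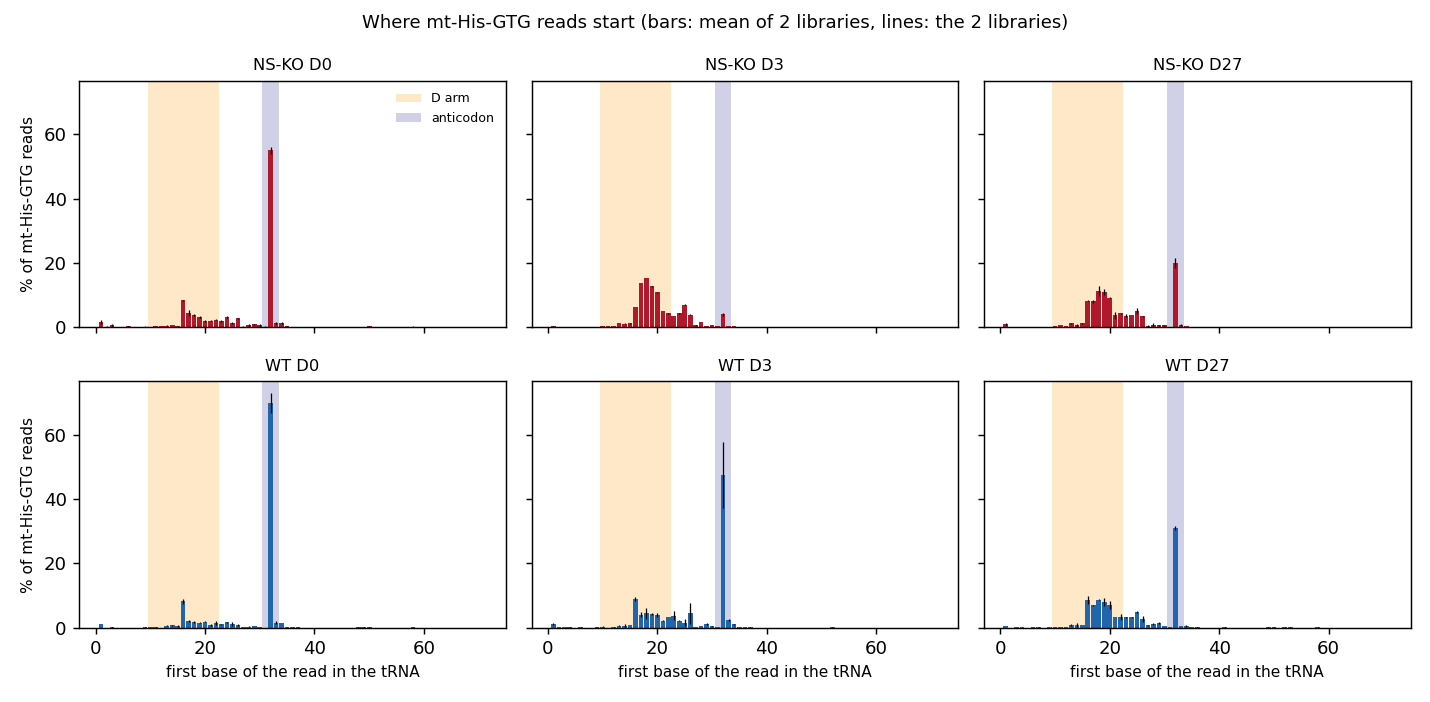
Percent of mt-His-GTG reads that start at each base of the tRNA, for the 6 groups. Bars are the mean of 2 libraries and thin lines span both; starts at base 32 held 4.45% and 3.45% of reads in NS-KO D3, where starts at bases 16 to 26 filled most of the rest, against 57.6% and 37.1% in WT D3.

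**Figure D3:**
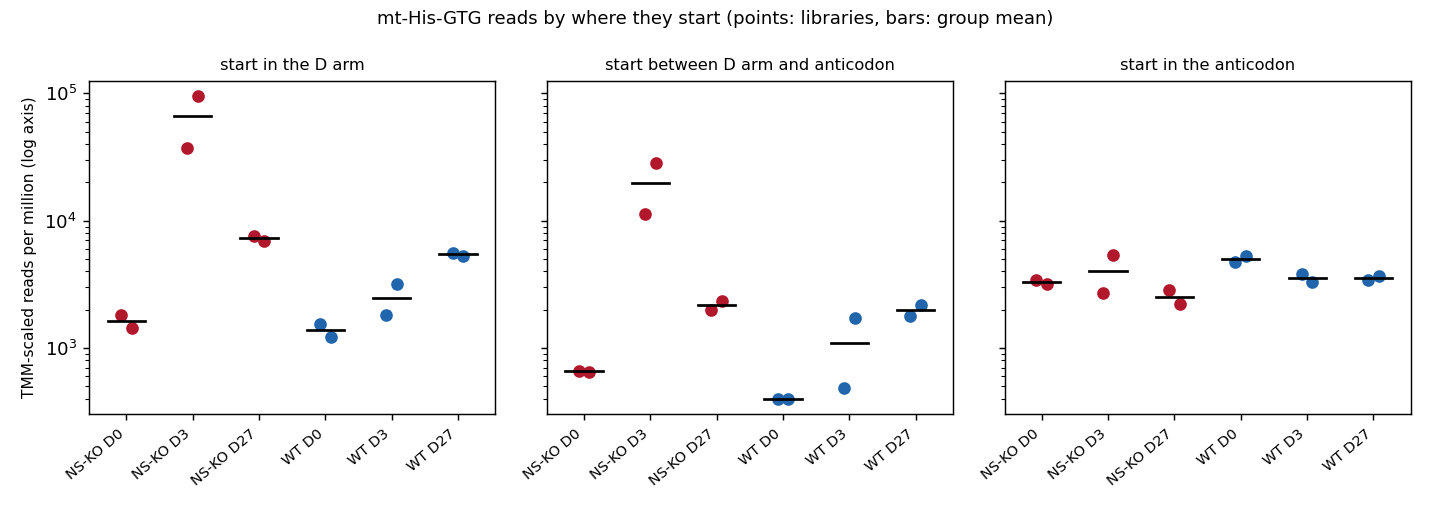
TMM-scaled CPM, on a log axis, of mt-His-GTG reads that start in the D arm, between the D arm and the anticodon, or in the anticodon. Points are libraries and bars group means; D-arm starts averaged 66268 in NS-KO D3 and 1637 in NS-KO D0, and anticodon starts 4032 and 3301.

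In the pooled reads, most of which came from NS-KO D3, the 3′ ends of the ladder lay mostly in the T arm. Over all libraries 44.9% of ladder reads ended in the T loop and 18.6% in the 5′ strand of the T stem, with single bases 51, 49, 48 and 52 the most frequent in the pooled reads. Before injury base 38, in the anticodon stem, was a more frequent end than base 51, with 16.1% and 16.8% against 5.47% and 4.19% in NS-KO D0, and 11.2% and 10.4% against 10.1% and 3.30% in WT D0. In NS-KO D3 47.3% and 46.2% of ladder reads ended in the T loop, against 26.6% and 21.6% in NS-KO D0. A second stop, between base 31 and the end of the anticodon stem, held 43.1% and 43.7% of ladder reads in NS-KO D0, 15.4% and 14.6% in NS-KO D3, and 24.9% and 23.7% in NS-KO D27. The shares were 30.6% and 29.7% in WT D0, 22.0% and 24.6% in WT D3 and 12.5% and 16.3% in WT D27, so this end point took a smaller share of the ladder after CCl4 in both genotypes.

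The composition of the fragments differed between genotypes in the mean over the 3 days, and no single day was tested. For reads ending at the last base with CCA, the NS-KO minus WT difference was -3.80 points at D0, -16.5 at D3 and -1.55 at D27. Among 8 measures, each tested by exact two-sided permutation of genotype within days (216 arrangements, smallest possible p 0.00926), 6 passed after adjustment. The tRNA was chosen on its genotype difference in reads, and the measures describe those same reads, so these tests are not independent of that choice. Each SD of a measure is over all 3 days, so it takes in the change between days as well as the spread between mice. Reads holding the whole anticodon averaged 70.5% ± 25.7 in the NS-KO libraries and 46.6% ± 19.9 in the WT ones (SD, n = 6 each), a difference of 24.0 percentage points (exact p = 0.00926, adjusted p = 0.0148). By library this share was 39.7% and 38.1% in NS-KO D0, 94.2% and 95.5% in NS-KO D3, and 75.8% and 79.9% in NS-KO D27, and 26.6% and 23.4% in WT D0, 37.4% and 58.5% in WT D3, and 67.5% and 65.9% in WT D27. NS-KO was above WT in both libraries on every day, by 13.9, 46.9 and 11.1 points at D0, D3 and D27. The start classes above used these same reads.

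Reads ending at the last base with CCA averaged 10.4% ± 9.62 in the NS-KO libraries and 17.7% ± 7.34 in the WT ones (SD, n = 6 each, exact p = 0.00926, adjusted p = 0.0148). Their share was 1.01% and 0.603% in NS-KO D3 against 20.7% and 13.9% in WT D3. The level of reads ending at base 71, with or without a mismatch, was 759 and 1139 CPM in NS-KO D3 and 2282 and 941 CPM in WT D3, so the levels overlapped where the shares did not. Reads were counted as holding neither end of the tRNA if they did not start at base 1 and did not end at base 71. Reads that stop just short of base 71, such as 32-70 and 32-70 C70A, are among them, so these are not internal fragments alone. Such reads averaged 85.6% ± 13.2 in the NS-KO libraries and 76.2% ± 9.85 in the WT ones (SD, n = 6 each). The single sequence 32-71 made up 7.86% ± 7.08 of NS-KO reads and 13.8% ± 5.41 of WT reads (SD, n = 6 each). Both measures had the same exact p of 0.00926 and adjusted p of 0.0148. These 4 measures share reads, and at 40 nt no read can hold both the whole anticodon and the last base, so they are not independent of each other.

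Reads were also shorter in NS-KO, with a mean length of 31.2 ± 1.49 nt against 33.6 ± 1.95 nt in WT (SD, n = 6 each, exact p = 0.00926, adjusted p = 0.0148). Here the difference was about as large on each day, -2.50 nt at D0, -2.47 nt at D3 and -2.23 nt at D27. With every library thinned to 444 mt-His-GTG reads, NS-KO held 266 ± 37.3 distinct sequences and WT 229 ± 49.7 (SD, n = 6 each, exact p = 0.0185, adjusted p = 0.0247). Neither mean length nor this number is independent of the 4 measures above, as all describe the same reads. Reads starting at base 32 had a median of 39 nt, against 32 nt for starts in the D arm. Reads without a mismatch averaged 59.6% ± 6.91 for NS-KO and 53.3% ± 3.36 for WT and missed the threshold after adjustment (SD, n = 6 each, exact p = 0.0463, adjusted p = 0.0529). Reads starting at base 1 were rare in both, 0.878% ± 0.695 of NS-KO reads and 0.921% ± 0.342 of WT reads (SD, n = 6 each, exact p = 0.88). Across days within a genotype, 2 libraries against 2 cannot give an exact p below 0.333, so the fall in read length and in CCA ends between D0 and D27 in WT is given as values only.

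**Figure D4:**
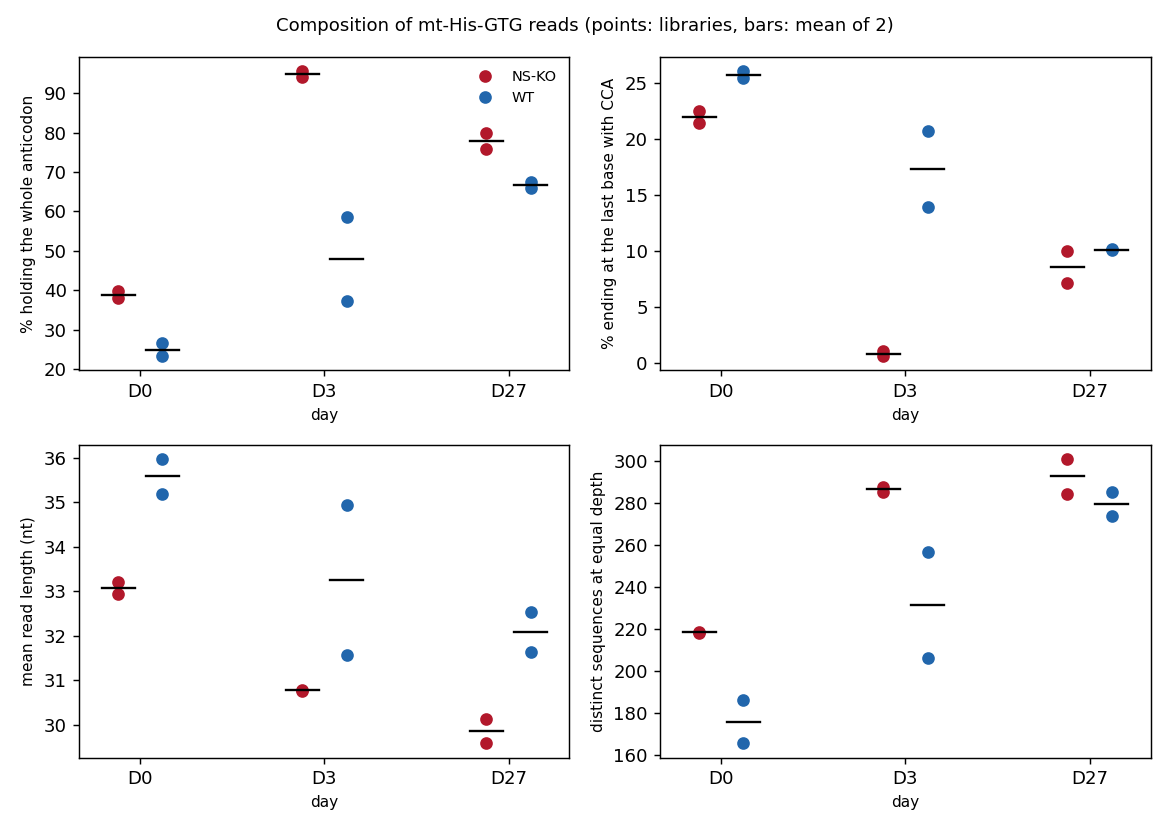
Composition of mt-His-GTG reads by genotype and day, as percent holding the whole anticodon, percent ending at the last base with CCA, mean read length in nt and distinct sequences after thinning each library to 444 reads. Points are libraries and bars the mean of 2; NS-KO libraries lie above WT ones for the anticodon and below for read length on each day.

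Single fragments showed the same split. The named fragments are the 10 sequences with the highest mean CPM, and 6 of them came from the ladder and 4 from the reads that start at base 32. Of these 4, the authors typed 32-71 and 32-70 C70A as tiRNA-3, and 32-70 and 32-70 C70T as Other. The ladder fragments owe their place among the 10 to NS-KO D3, so their D3 levels are given as a description. The fragment 18-49 had no read in either NS-KO D0 library, 180 and 283 in NS-KO D3, 1 and 4 in NS-KO D27, and 0 to 6 in the 6 WT libraries. Its mean of 1518 CPM in NS-KO D3 was at least 28.6-fold the 53.1 CPM that 3 reads per library would give in NS-KO D0. The fragment 18-51 had 1 and 1 reads in NS-KO D0, 204 and 246 in NS-KO D3, 2 and 3 in NS-KO D27 and 0 to 4 in WT, with a log2 difference of D3 to D0 in NS-KO of 5.45.

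The ladder fragments 19-49, 19-51 and 20-49 were of the same kind, with 124 to 215 reads in the NS-KO D3 libraries and 0 or 1 in those of NS-KO D0. The shorter 17-38, which ends in the anticodon stem, had 8 and 2 reads in NS-KO D0, 125 and 159 in NS-KO D3, 8 and 11 in NS-KO D27 and 5 to 7 in every WT library. Its log2 difference of D3 to D0 in NS-KO was 3.63. Among starts at base 32, the fragment 32-71 had 116 and 67 reads in NS-KO D0, 88 and 83 in NS-KO D3, and 68 and 70 in NS-KO D27. It had 177 and 160 in WT D0, 123 and 117 in WT D3, and 110 and 108 in WT D27. It was the most abundant single sequence, its log2 difference in NS-KO at D3 was -1.06, and it did not pass (limma adjusted p = 0.256). The variant 32-70 C70A, which carries a CCA end on a body 1 base shorter, had 38 and 29 reads in NS-KO D3 against 23 and 8 in NS-KO D0. It did not pass either (limma log2 difference 0.21, adjusted p = 1). These libraries differ in depth. In CPM the variant held 172 and 228 in NS-KO D3 against 325 and 170 in NS-KO D0. The fragment 32-71 held 397 and 652 CPM against 1638 and 1427.

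Over all members, 1063 of the 5641 sequences reached 20 CPM in at least 1 library and entered the limma fits, which were run over 22065 sequences. At D3 against D0 in NS-KO, 431 members were called higher and 1 lower, where 7.46% of all sequences were called higher. As 400 of the 1063 members reached 20 CPM in NS-KO D3 alone, that count is partly set by the filter and is given as a description. In the WT comparison of D3 with D0, limma called 0 members and 0% of all sequences higher, 3 members had an unadjusted p under 0.05, and voom weights called 0. For the difference between genotypes in the D3 change, 119 members were called higher against 1.49% of all sequences, a count that the same filter and the choice of the tRNA partly set. The count was 0 with a prior count of 0.5 and without any 1 of 5 libraries (NS-KO D0 replicate 2 and each WT D0 and WT D3 library), and 465 without NS-KO D3 replicate 1.

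Most other mitochondrial tRNAs rose beside mt-His-GTG. Of the 20 others, 19 had enough reads to test, and at D3 against D0 in NS-KO limma called 17 higher and 0 lower, with a median log2 difference of 1.96 against 0.08 over all sums. mt-His-GTG had rank 5 of all 124 sums in that comparison, behind mt-Ala-TGC (5.08), mt-Cys-GCA (4.45), mt-Pro-TGG (4.24) and mt-Asn-GTT (4.00). In WT, D3 against D0 gave 0 calls among the 19 in limma (1 at an unadjusted p under 0.05, 0 with voom weights) and a median of 0.12. The difference between genotypes in the D3 change was called for 12 of the 19, all higher in NS-KO, and for 21 sums higher and 11 lower among all 124. At D27 against D0 in NS-KO none of the 19 was called (1 at an unadjusted p under 0.05, 0 with voom weights) and their median was -0.08, below the 1.06 of mt-His-GTG, a difference that was not tested.

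The tRNAs encoded directly after mt-His-GTG did not move as 1 unit with it. mt-Ser-GCT, the serine tRNA that lacks a D arm and the most sequenced mitochondrial tRNA over all libraries (121572 reads), had a log2 difference of -0.04 at D3 against D0 in NS-KO (limma adjusted p = 0.938). mt-Leu-TAG, with 325 reads in all, rose by 2.27 (limma adjusted p = 0.00128). By Pearson correlation of log2 CPM over the 12 libraries, the 5 sums most like mt-His-GTG among 123 were mt-Ala-TGC (0.956), mt-Asn-GTT (0.954), mt-Met-CAT (0.949), mt-Thr-TGT (0.947) and mt-Gly-TCC (0.944). Much of this likeness lay in the 2 NS-KO D3 libraries, since over the other 10 the same 5 gave 0.619, 0.512, 0.407, 0.127 and 0.309.

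**Figure D5:**
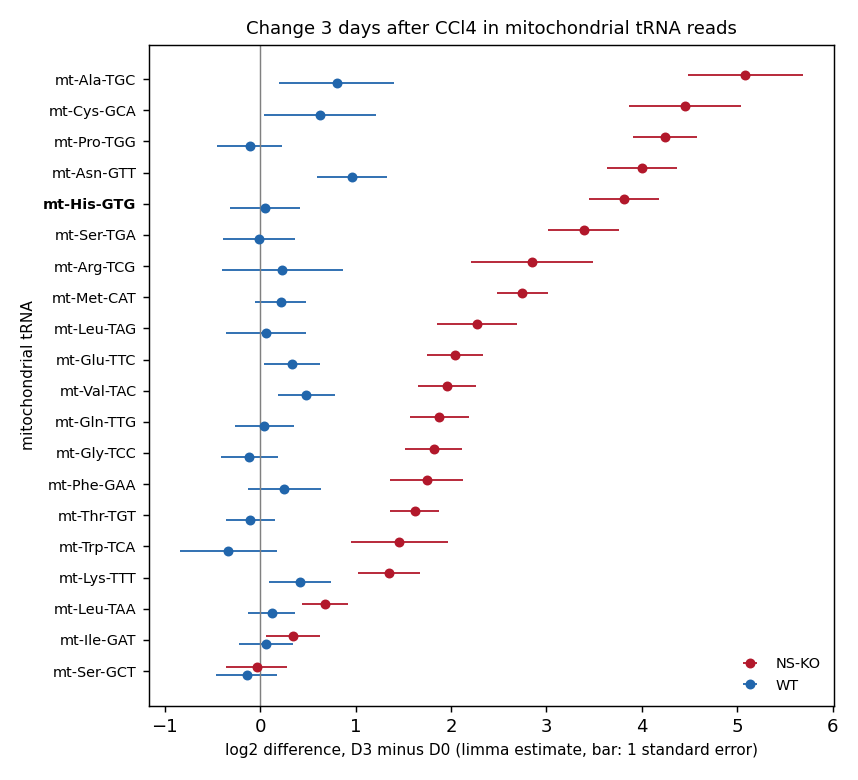
Log2 difference of D3 to D0 for each mitochondrial tRNA that could be tested, in NS-KO and in WT (limma estimates with 1 standard error). mt-His-GTG, at 3.81 in NS-KO and 0.05 in WT, has rank 5, with mt-Ser-GCT last at -0.04 in NS-KO.

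The 5′ end of mt-His-GTG carried a mark of histidine tRNAs. Such tRNAs are known for an extra G placed before the first base after transcription, which histidyl-tRNA synthetase reads in the cytosol. Reads with this G cannot match the mature sequence in the table and fall under the precursor, so they are not among the members. Of 403 reads (78 sequences) listed under the mt-His-GTG precursor only, 289 began with a G before base 1 that the precursor sequence does not have. The most frequent of them, 36 nt with 87 reads, is shown with that G in capitals.
G before base 1: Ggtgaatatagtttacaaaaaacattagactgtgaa

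There were 14 and 7 such reads in NS-KO D0, 55 and 64 in NS-KO D3, 10 and 19 in NS-KO D27, 21 and 25 in WT D0, 23 and 13 in WT D3, and 22 and 16 in WT D27. Set beside the 160 reads that start at base 1 itself, they were 64.4% of the 5′ ends counted in these 2 ways, and 50.0% to 73.3% in single libraries. Among 18 other mitochondrial tRNAs whose precursor has another base than G at that place, 0 of 134446 reads at the 5′ end had it, which allows a share of up to 0.00223%. Most of these reads, 114194, came from mt-Ser-GCT alone, and some of the 18 had few or none, such as mt-Leu-TAG with 11, mt-Asp-GTC with 3 and mt-Arg-TCG with 0, for which the pooled limit says little. The reads at the 5′ end also held a frequent internal mismatch. At base 9, 152 of 360 covering reads read T for the reference A (A9T), 41.8% and 47.1% in NS-KO D3, and 16.7% to 50.0% over the other libraries, each with few covering reads. N1-methyladenosine at this place is known from many mitochondrial tRNAs and can be misread by reverse transcriptase, and the libraries had been treated against it. A read with the G before base 1 already holds the 1 mismatch allowed and could not also hold A9T. Reads starting at base 1 could. The 64.4% above therefore compares ends counted under unequal rules, and may be too low.

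Other mismatches sat mainly at the ends of reads. In 9207 of 14897 mismatched reads (61.8%) the mismatch was the last base of the read, and such reads were 21.1% and 19.1% of all mt-His-GTG reads in NS-KO D3 and 22.4% to 36.0% in the other libraries. In pooled reads the most frequent was C56T, at 10.2% and 10.1% of covering reads in NS-KO D3 and 0.315% to 3.97% in the other libraries, with 842 of its 854 reads ending there. C70T took a larger share of the reads that cover its base, 12.4% over all libraries. It was 21.3% and 24.6% in NS-KO D3 and 6.43% to 12.3% in the other libraries. Most C70T reads also ended there (388 of 420), so both shares depend on how many reads end at the base. In NS-KO D3 there were 339 and 465 C56T reads beside 789 and 1109 reads ending at base 56. In WT D3 these were 7 and 2 beside 16 and 11. For C70T they were 80 and 89 beside 208 and 217 reads ending at base 70 in NS-KO D3. In WT D3 they were 25 and 34 beside 100 and 95. Whether these last bases were added to the RNA or arose in library construction was not tested.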

How the data were processed

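Per the study's methods and labels, the authors checked reads with FastQC, trimmed them with cutadapt, kept 14 to 40 nt and aligned them with Bowtie, 1 mismatch allowed, to mature tRNAs and then the remainder to precursors (versions not given in the sources used here). The deposited table gives whole-number reads per sequence and library, neither scaled nor filtered. Its 12 columns matched the per-sample alignments in every sequence. The count model that the methods name was not run, because text lines inside the table kept it from being accepted as counts, and limma 3.58.1 (R 4.3.3) was fitted to log2 CPM (prior count 2) with trended variances, 1 mean per group and Benjamini-Hochberg adjustment over all features, calls at an adjusted p under 0.05. TMM factors, 0.421 to 1.80, were computed over isodecoder sums with at least 10 reads in at least 2 libraries (log ratios trimmed by 30%, levels by 5%). Thinned numbers are means of 20 copies. Composition was computed with Python 3.11.15, numpy 2.4.6 and scipy 1.17.1, and plots with matplotlib 3.10.9. Alternatives covered scaling, prior count, voom weights, replicate block, mismatches, shared sequences, filters and each library left out. Named fragments are the 10 sequences with the highest mean CPM, with each library weighted equally, plus the top sequence of any subtype where it had 100 reads, which added none. The tRNA, the fragments' measures and the lists were chosen with earlier results of these data known.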

Additional observations from a re-analysis of the deposited data

Results flagged for a closer look

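The change in mt-His-GTG reads at D3 against D0 differed between the genotypes, by 3.76 on the log2 scale (limma interaction). The tRNA was chosen on its genotype difference, which the NS-KO D3 libraries carry, so this value is a description and not an independent test. The reads were higher at D3 than at D0 in both NS-KO D3 libraries. In 12 of 19 other mitochondrial tRNAs the same difference was called, all higher in NS-KO. Of all 124 sums 25.8% were called in either direction, 21 higher and 11 lower. The cause was not tested.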

How the results depend on the processing

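The rise of mt-His-GTG at D3 against D0 in NS-KO kept its direction and its side of the threshold under all 19 alternatives. So did its fall at D27 against D3. The difference between genotypes in the D3 change kept its direction. All alternatives reuse NS-KO D3 libraries, which carry the genotype difference on which the tRNA was chosen, so none is an independent test. The sizes moved. With scaling on mitochondrial tRNA reads, the rise, the fall and the difference between genotypes were 2.35, -1.09 and 2.17, against 3.81, -2.76 and 3.76. Without TMM factors they were 3.32, -2.28 and 2.53. Without NS-KO D3 replicate 2 the rise was 3.14 and the difference between genotypes 3.19, and without replicate 1 they were 4.36 and 4.41. The log2 difference of D27 to D0 in NS-KO was 1.25 and passed with scaling on mitochondrial tRNA reads (limma adjusted p = 0.000159), and was 0.99 to 1.13 with 1 library left out, passing without NS-KO D3 replicate 1 or 2. In WT, D3 against D0 (0.05) was 0.79 without TMM factors (limma adjusted p = 0.267) and -0.16 to 0.13 with 1 library left out, and D27 against D3 was -0.16 without TMM factors. Where a group was left with 1 library, limma assumes that it varies like the others.

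The log2 ratio of mean CPM of NS-KO to WT at D0 (1.17) was -0.62 among mitochondrial tRNA reads, -0.24 among tRNA reads outside the class tRF-5c, -0.26 after TMM scaling and 0.87 for reads without a mismatch. At D3 (3.82) it was 2.31 among mitochondrial tRNA reads. At D27 (1.54) it was 0.0667 among mitochondrial tRNA reads, 0.37 outside tRF-5c and 0.13 after TMM scaling. With 1 library left out it was 0.93 to 1.47 at D0, 3.02 to 4.34 at D3 and 1.17 to 2.04 at D27.

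The 431 members higher at D3 in NS-KO were 282 among sequences without a mismatch and 227 to 586 with 1 library left out. The 119 for the difference between genotypes were 0 with a prior count of 0.5, 253 with a filter of 10 reads in all, 234 with 20 CPM asked of 2 libraries, and 0 to 465 with 1 library left out. Reads starting at base 1 differed by 0.0818 points in sequences with at least 10 reads and by -0.238 to 0.153 with 1 library left out. Reads without a mismatch differed by -5.74 points with each sequence counted once, by 8.83 in sequences with at least 10 reads, which passed, and by 5.11 to 7.51 with 1 library left out. The difference in mean length was -1.18 nt with each sequence counted once and did not pass (exact permutation, adjusted p = 0.111). Distinct sequences differed by 28.5 to 45.4 with 1 library left out, missing the threshold without NS-KO D3 replicate 1. The causes were not tested.

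Same-numbered replicates did not pair across groups (15 pairs of groups, correlations -0.33 to 0.59, 1 over 0.1). With the replicate block the D3 difference in NS-KO was 3.81 (limma adjusted p = 3.24e-05), the difference between genotypes 3.76, and the members called 435 and 113, and no call on mt-His-GTG changed. Depth limits single fragments, since 3 reads equal 53.1 CPM on average in NS-KO D0.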
